A study of Mus musculus with 6 samples.

Results

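The platelet-derived growth factor (PDGF) family comprises 4 ligand genes, *Pdgfa*, *Pdgfb*, *Pdgfc* and *Pdgfd*, and 2 receptor genes, *Pdgfra* and *Pdgfrb*. These 6 genes were taken by symbol from a table of 54232 genes, of which 28552 had at least 1 count, and all 6 were detected in every library and entered the test. The libraries were made by RNA-Seq from primary mouse uterine stromal cells (mUSCs) on day 4 (D4), the time at which the uterus can accept a blastocyst. The WT group held 3 libraries and the *Pbrm1* cKO group held 3. *Pbrm1* encodes a subunit of the SWI/SNF chromatin remodeler, and the comparison asks which transcripts change in stromal cells when it is deleted.

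*Pbrm1* cKO mice carried Pbrm1 fl/fl alleles and PR-IRES-cre, in which Cre is made wherever the progesterone receptor gene is active, so that deletion is not limited to the stroma. Controls are named WT in the labels and described as Pbrm1 fl/fl in the study's methods, which name no Cre allele for them, so that an effect of Cre itself and an effect of the deletion cannot be told apart. Mice were 8 to 12 weeks old. Uterine horns from 5 to 10 pseudopregnant D4 mice were minced and digested, according to the methods for both genotypes, although the label's protocol names only WT. The cells were plated for 4 h, changed to fresh medium with serum and collected 2 h later. Every library was therefore made from pooled tissue and from cells that had been exposed to serum, a rich source of PDGF. The study calls the 3 libraries of a group biological replicates, without saying whether each came from its own pool of mice, and p-values measure the spread between these libraries.

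PDGF ligands are secreted dimers that bind receptor tyrosine kinases on mesenchymal cells and drive their division and migration. PDGF-A and PDGF-C act through PDGFRα, PDGF-B acts through both receptors, and PDGF-D acts mainly through PDGFRβ. PDGF-A and PDGF-B are cut by proprotein convertases inside the cell. PDGF-C and PDGF-D are secreted in a latent form and become active only after proteases outside the cell remove an amino-terminal CUB domain. PDGFRα is a common marker of fibroblasts, including those of the uterine stroma, whereas PDGFRβ is shared by fibroblasts and the mural cells of blood vessels, to which endothelial PDGF-B is the classical signal.

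Total counts ranged from 13253575 to 18338667 per library. *Pbrm1* had 1354, 1385 and 1677 normalized counts (raw counts divided by the DESeq2 size factor of the library) in WT against 397, 459 and 451 in *Pbrm1* cKO, in the order of the replicate numbers as everywhere below, which left 29.6% of the WT mean. The stromal markers *Vim*, *Col1a1*, *Pgr* and *Esr1* were all abundant, and the 14 stromal markers together gave 103114 to 118203 normalized counts in WT against 81360 to 86305 in *Pbrm1* cKO. Markers of other cells were also present. The 16 leukocyte markers summed to 4426 to 10080 in WT against 39085 to 40579 in *Pbrm1* cKO, and the 12 endothelial markers to 3537 to 7239 in WT against 3182 to 3787 in *Pbrm1* cKO. WT replicate 1 stood apart, with the lowest value of the WT libraries in 11 of 12 endothelial, 8 of 10 mural, 14 of 16 leukocyte and 15 of 18 epithelial markers. The WT libraries varied more among themselves than the *Pbrm1* cKO libraries, with a biological coefficient of variation of 0.165 against 0.047.

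Of the 6 genes, *Pdgfa* and *Pdgfra* rose, *Pdgfd* fell, and *Pdgfb*, *Pdgfc* and *Pdgfrb* did not pass an adjusted p of 0.05 in DESeq2. That is 3 of 6 genes, where 5432 of all 17474 genes tested passed, or 31.1% (15.9% higher and 15.2% lower in *Pbrm1* cKO). Groups did not overlap for *Pdgfa*, *Pdgfd*, *Pdgfra* and *Pdgfrb*, or 4 of 6, against 48.6% of all genes tested. In pooled cells, fewer cells of a type and less RNA per cell cannot be told apart, which holds for every difference below.

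**Figure D1:**
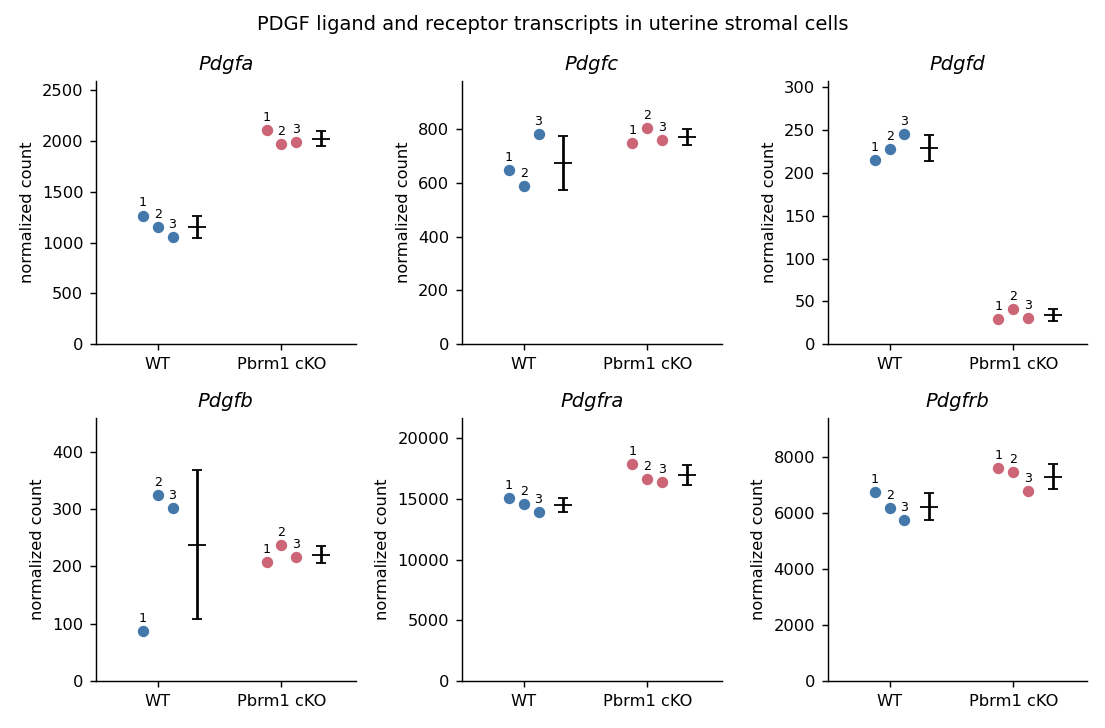
Normalized counts of the 6 PDGF genes, 1 panel per gene, with the y axis starting at 0; points are libraries labelled with their replicate number, and the bar beside them is the mean ± SD of 3. *Pdgfd* sits between 215 and 245 in WT and between 29.6 and 41.5 in *Pbrm1* cKO, and the WT point far below the others for *Pdgfb* is replicate 1.

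*Pdgfd*, on the plus strand at chr9:6168584-6378850 (GRCm38/mm10), encodes the latent ligand of PDGFRβ. Its normalized counts were 215, 229 and 245 in WT against 29.6, 41.5 and 31.0 in *Pbrm1* cKO. Every WT library was at least 5 times as high as any *Pbrm1* cKO library. The means were 230 ± 15.3 and 34.0 ± 6.54 (SD, n = 3 each), so that 14.8% of the WT level remained, a 6.75-fold difference. The log2 fold change of *Pdgfd* was -2.74 with an SE of 0.23 (95% interval -3.19 to -2.30; DESeq2 adjusted p = 2.25e-31). Among the genes tested, 1.10% had a lower log2 fold change. The raw counts behind these values were 201, 206 and 227 in WT against 30, 52 and 33 in *Pbrm1* cKO. *Pdgfd* stayed past the threshold in the same direction in all 14 other analyses, between -2.92 and -2.65. Lower in the same libraries were 7 of 14 stromal markers (median log2 fold change -0.25), 7 of 12 smooth muscle markers (median -0.60, summed counts 87213 to 93767 in WT against 76095 to 79811 in *Pbrm1* cKO) and 3 of 10 mural markers (median -0.94, 2955 to 4402 and 3817 to 4159), where 15.2% of all genes tested were lower. The mural count was 8 without WT replicate 1. In the other direction, 1 stromal marker, *Fn1* (log2 fold change 0.74), and 1 mural marker, *Cspg4* (0.37), were higher. *Cspg4* alone gave most of the mural sum, with 2415, 2957 and 2587 in WT against 3595, 3469 and 3211 in *Pbrm1* cKO. The mural sum therefore says little about the other mural markers. No stromal or smooth muscle marker was at 0 in any library, the mural *Higd1b* and *Cox4i2* were at 0 in 1 library each, and the part of these cell types in the fall of *Pdgfd* was not tested.

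Neither the gene inside *Pdgfd* nor the nearest protein-coding gene on each side passed the threshold. Noncoding genes on either side were not examined. *Ddi1*, which lies on the opposite strand inside *Pdgfd*, had 0 counts in every library, which allows up to 3. *Casp12*, 796 kb before *Pdgfd*, had 69.5, 88.8 and 68.1 normalized counts in WT against 52.3, 51.1 and 41.3 in *Pbrm1* cKO, with a log2 fold change of -0.64 (SE 0.27) that did not pass the threshold (DESeq2 adjusted p = 0.0582). *Dync2h1*, 550 kb after it, had a log2 fold change of 0.13 (SE 0.17, adjusted p = 0.630). The difference between the change of *Pdgfd* and that of its neighbours was not tested.

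The sequence before the *Pdgfd* start is shown because this ligand gene changed most, together with that before both RefSeq starts of *Pdgfa*, which changed the other way. Each line holds the 250 bases that precede a start in RefSeq (GRCm38.p6), read 5′ to 3′ on the strand of the gene, and 4 of the 6 PDGF genes had an entry in the table of starts used here. Capitals mark matches, on either strand, to 6 motifs. The study took 4 of them from its PBRM1 and BRG1 ChIC-Seq peaks, of which motif 1 is CCAGGGCCT, motif 2 is TCCCAG, motif 3 is GACCACT and motif 4 is TCGGTG. The others are the GC box, written GGGCGG, and the TATA box, written TATAAA. A motif on the opposite strand appears as its reverse complement.
Pdgfd, chr9:6168236-6168485, plus strand: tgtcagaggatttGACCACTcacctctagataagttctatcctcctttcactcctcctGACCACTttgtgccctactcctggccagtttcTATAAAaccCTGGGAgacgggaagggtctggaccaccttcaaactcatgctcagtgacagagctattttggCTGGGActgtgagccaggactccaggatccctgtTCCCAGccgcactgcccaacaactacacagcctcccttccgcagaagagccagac
Pdgfa, chr5:138994282-138994531, minus strand: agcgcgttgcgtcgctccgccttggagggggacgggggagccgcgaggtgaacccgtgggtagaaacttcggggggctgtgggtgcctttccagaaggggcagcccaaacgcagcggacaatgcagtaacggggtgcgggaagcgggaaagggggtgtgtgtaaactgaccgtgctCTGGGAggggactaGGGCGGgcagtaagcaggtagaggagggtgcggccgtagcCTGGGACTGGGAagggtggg
Pdgfa, chr5:138994945-138995194, minus strand: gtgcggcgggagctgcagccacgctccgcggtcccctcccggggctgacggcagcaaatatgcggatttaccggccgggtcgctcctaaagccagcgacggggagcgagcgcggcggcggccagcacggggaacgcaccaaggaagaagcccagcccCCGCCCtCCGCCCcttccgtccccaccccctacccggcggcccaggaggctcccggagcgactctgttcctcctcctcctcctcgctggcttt

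The *Pdgfd* window held GACCACT at 2 places, beginning 237 and 192 bases before the start. At least 1 copy of GACCACT was found in 2.15% of 32851 RefSeq windows of the same length, and 2 or more copies in 13 of them. TCCCAG occurred 3 times in the *Pdgfd* window, a motif held at least once by 27.0% of the windows and 2 or more times by 4.45%, and TATAAA once, held by 12.4%. The *Pdgfd* window held 3 CpG, as did that of *Pdgfc*, and the *Pdgfra* window held 4, against a median of 6 over all windows, whereas the *Pdgfa* windows held 19 and 28. TCCCAG occurred 3 times before the start at 138994281, and GGGCGG, held by 32.7% of the windows, once before that start and at 2 places before the start at 138994944. The *Pdgfc* and *Pdgfra* windows held none of the 6 motifs. CCAGGGCCT (0.731% of windows) and TCGGTG (5.46%) were in none of these windows. These matches describe letters only and show no binding.

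*Pdgfa*, on the minus strand at chr5:138976014-138997370, encodes the PDGFRα ligand with the highest transcript level of the 4. Its normalized counts were 1268, 1152 and 1054 in WT against 2107, 1972 and 1993 in *Pbrm1* cKO. All *Pbrm1* cKO libraries lay above all WT libraries. The means of 1158 ± 107 and 2024 ± 72.8 (SD, n = 3 each) differed 1.75-fold (95% interval 1.52 to 2.01). The log2 fold change was 0.81 with an SE of 0.10 (DESeq2 adjusted p = 3.90e-13), and 11.7% of the genes tested had a higher one. Against a minimum log2 fold change of 0.58, the *Pdgfa* difference did not pass (adjusted p = 0.36). Higher in the same libraries were 13 of 14 leukocyte markers tested, with a median log2 fold change of 2.12, and 5 of 17 epithelial markers, with a median of 0.52 and summed counts of 2049 to 3751 in WT against 4054 to 4277 in *Pbrm1* cKO. Of all genes tested, 15.9% were higher. The epithelial count was 3 without *Pbrm1* cKO replicate 1 or 2, and the epithelial median was 0.30 without WT replicate 1. *Ptprc* and the epithelial *Epcam* were above 0 in every library, *Nkg7*, *Cd79a*, *Foxa2* and *Ovol1* were at 0 in at least 1, and the part of these cells in the rise of *Pdgfa* was not tested.

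An antisense gene, *6330403L08Rik* (chr5:138995056-139000577, plus strand), overlaps the 5′ end of *Pdgfa*. It had 115, 82 and 100 raw counts in WT against 212, 231 and 219 in *Pbrm1* cKO. Its log2 fold change was 0.89 with an SE of 0.19 (DESeq2 adjusted p = 2.82e-05). The counting used strand, so that reads of the antisense gene and of *Pdgfa* went to separate genes as far as the library kept strand. *Prkar1b*, a regulatory subunit of protein kinase A that lies 19.9 kb from *Pdgfa* on the same strand, fell by 0.74 on the log2 scale (SE 0.12, adjusted p = 3.12e-08). Its normalized counts were 1117, 908 and 946 in WT against 633, 575 and 568 in *Pbrm1* cKO, the opposite direction to that of *Pdgfa*.

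*Pdgfc* (chr3:81036416-81214040, plus strand) encodes the latent ligand of PDGFRα. It had 649, 589 and 784 normalized counts in WT against 750, 805 and 759 in *Pbrm1* cKO. WT replicate 3 lay within the *Pbrm1* cKO range and the other WT libraries below it. The log2 fold change of 0.19 (SE 0.13, 95% interval -0.06 to 0.45) did not pass the threshold (DESeq2 adjusted p = 0.287), although without WT replicate 3 it was 0.31 and did (adjusted p = 0.0254). The test of *Pdgfc* therefore rested on 1 library.

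*Pdgfb* (chr15:79995874-80014977, minus strand) encodes the ligand of both receptors, best known from endothelial cells and platelets. Its normalized counts were 87.6, 325 and 302 in WT against 208, 238 and 216 in *Pbrm1* cKO. The *Pbrm1* cKO values all lay between WT replicate 1 and the other WT libraries. The coefficient of variation was 55.0% in WT and 7.05% in *Pbrm1* cKO. The log2 fold change was -0.11 with an SE of 0.55 (95% interval -1.18 to 0.96; DESeq2 adjusted p = 0.917), an interval wide enough to hold a change of either sign. Without WT replicate 1 the log2 fold change was -0.51 (adjusted p = 0.0075), and without WT replicate 2 it was 0.18 (adjusted p = 0.809).

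Endothelial markers had the same low library. *Pecam1*, a marker of endothelial cells chosen here after its values were seen, had 137, 825 and 638 normalized counts in WT against 298, 332 and 262 in *Pbrm1* cKO. *Emcn*, which marks capillary and venous endothelium, had 274, 1615 and 1327 in WT against 267, 284 and 243 in *Pbrm1* cKO, a log2 fold change of -2.02 (DESeq2 adjusted p = 0.0148) that missed the threshold when any one library other than WT replicate 1 was left out. Endothelial *Cdh5* did not share that pattern, with 774, 713 and 677 in WT against 190, 192 and 201 in *Pbrm1* cKO (log2 fold change -1.89, adjusted p = 2.40e-46). *Vwf* rose, from 21.4, 67.7 and 69.2 to 192, 210 and 187 (log2 fold change 1.90, adjusted p = 1.01e-07). Of the 12 endothelial markers 4 were lower and 1 was higher, beside 15.2% and 15.9% of all genes tested, and 10 were lower without WT replicate 1, but 1 without any other single library. The platelet list had 9 genes, of which 3 were tested; they summed with the others to 232 to 734 in WT against 711 to 876 in *Pbrm1* cKO. Of these, *Gp9* and *Gp1ba* had no count in any library, and *Gp6* had at most 3 in each. No endothelial marker was at 0. The part of these cells in the *Pdgfb* values was not tested.

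**Figure D2:**
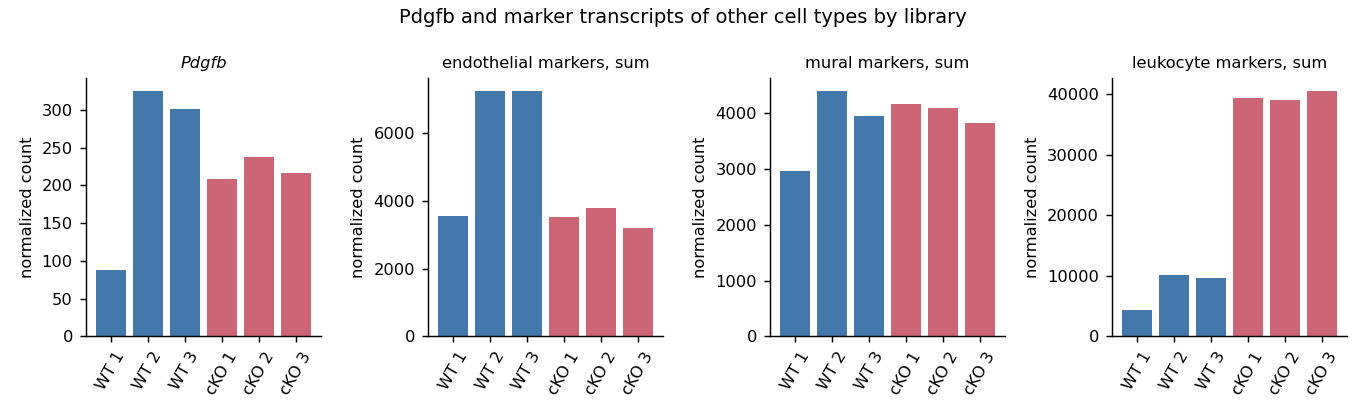
Normalized counts of *Pdgfb* and summed normalized counts of the endothelial, mural and leukocyte marker lists, 1 bar per library with each axis starting at 0 and its own scale. Most of each mural sum is *Cspg4*, a marker that rose. The *Pdgfb* bar of WT replicate 1 is the lowest of 6, the endothelial sum of that library (3537) is close to those of *Pbrm1* cKO, and the leukocyte sums are 39085 to 40579 in *Pbrm1* cKO against 4426 to 10080 in WT.

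The receptors were the most abundant PDGF transcripts. *Pdgfra* (chr5:75152292-75198215, plus strand) had 15047, 14559 and 13916 normalized counts in WT against 17884, 16635 and 16372 in *Pbrm1* cKO, without overlap between the groups. The means differed 1.17-fold (95% interval 1.05 to 1.31), with a log2 fold change of 0.23, an SE of 0.08 and a DESeq2 adjusted p of 0.0216. That call was lost when *Pbrm1* cKO replicate 1 (adjusted p = 0.158), *Pbrm1* cKO replicate 2 (0.0942) or WT replicate 2 (0.0722) was left out, and the log2 fold change was 0.08 (adjusted p = 0.554) when the trend of library differences with gene length was removed. *Pdgfrb* (chr18:61045150-61085061, plus strand) had 6720, 6163 and 5746 in WT against 7598, 7465 and 6777 in *Pbrm1* cKO, which did not overlap either. Its log2 fold change of 0.23 (SE 0.10, 95% interval 0.04 to 0.42) missed the threshold (adjusted p = 0.0582), and without WT replicate 1 it was 0.29 and passed (adjusted p = 0.00321). A difference in the response of the receptors was not tested, and their ratio, *Pdgfra* to *Pdgfrb* in TPM (read counts per exon length, scaled to a fixed library total), was 1.28 ± 0.051 in WT against 1.27 ± 0.052 in *Pbrm1* cKO (n = 3 each, SD).

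The receptors have close kin as neighbours. *Kit*, the receptor of stem cell factor, lies 377 kb after *Pdgfra* and had 5.34, 69.9 and 63.8 normalized counts in WT against 86.8, 79.9 and 66.6 in *Pbrm1* cKO, with a log2 fold change of 0.75 that did not pass (SE 0.90, DESeq2 adjusted p = 0.601) and was 0.22 without WT replicate 1. *Csf1r*, the receptor of macrophage colony-stimulating factor, lies 20.5 kb after *Pdgfrb* and had 331, 472 and 457 in WT against 2708, 2516 and 2385 in *Pbrm1* cKO (log2 fold change 2.59, SE 0.14, adjusted p = 1.62e-72). *Csf1r* is itself made by macrophages, and the macrophage markers *Adgre1* and *Cd68* rose by 1.75 and 2.28 on the log2 scale, beside which the part of these cells was not tested. Its ligand *Csf1* rose by 0.60 (SE 0.12, adjusted p = 7.41e-06). *Kitl*, the ligand of KIT, had a log2 fold change of 0.18 (adjusted p = 0.670) and *Flt3l*, with 2 to 8 raw counts in every library, one of 1.24 (SE 0.97, adjusted p = 0.370), neither past the threshold. *Flt3* and *Il34* had at most 4 raw counts in any library and were not tested. Of 5 relatives tested, *Csf1r* and *Csf1* rose, or 2, where 15.9% of all genes tested were higher.

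The levels were compared between genes in TPM. In WT the means were 273 ± 15.2 for *Pdgfra*, 214 ± 20.7 for *Pdgfrb*, 70.0 ± 7.68 for *Pdgfa*, 25.0 ± 3.92 for *Pdgfc*, 13.7 ± 0.837 for *Pdgfd* and 10.7 ± 5.74 for *Pdgfb* (SD, n = 3 each). *Pdgfd* (13.2, 13.3 and 14.7) and *Pdgfb* (4.07, 14.3 and 13.7) overlapped in that order and no other neighbours did. The order of *Pdgfd* and *Pdgfb* in WT is therefore not settled. In *Pbrm1* cKO *Pdgfd* was last, with 367 ± 27.7 for *Pdgfra*, 288 ± 25.7 for *Pdgfrb*, 141 ± 8.57 for *Pdgfa*, 32.8 ± 1.58 for *Pdgfc*, 11.5 ± 0.852 for *Pdgfb* and 2.34 ± 0.459 for *Pdgfd*, none of which overlapped. *Pdgfd* gave 11.5% ± 0.596 of the summed ligand TPM in WT and 1.25% ± 0.247 in *Pbrm1* cKO. *Pdgfa* gave 58.6% ± 6.32 and 75.1% ± 1.56, *Pdgfc* 20.9% ± 2.91 and 17.5% ± 0.836, and *Pdgfb* 8.99% ± 4.88 and 6.14% ± 0.490. The ratio of *Pdgfa* to *Pdgfd* was 5.14 ± 0.812 in WT against 61.7 ± 12.4 in *Pbrm1* cKO. The median log2 ratio of mean TPM, *Pbrm1* cKO over WT, was 0.20 over 17418 genes tested and above 0 in both groups, so that the TPM of a gene is compared here within a library and changes are taken from normalized counts.

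**Figure D3:**
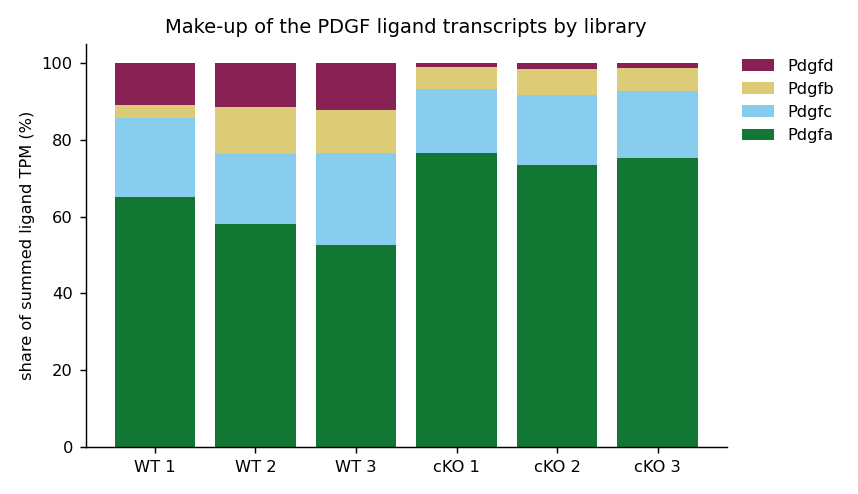
Share of each ligand in the summed TPM of the 4 PDGF ligands, 1 stacked bar per library, in percent. *Pdgfd* takes 10.9% to 12.1% of the sum in the WT libraries and 1.06% to 1.53% in the *Pbrm1* cKO libraries, while *Pdgfa* takes 52.6% to 65.2% and 73.5% to 76.6%.

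**Figure D4:**
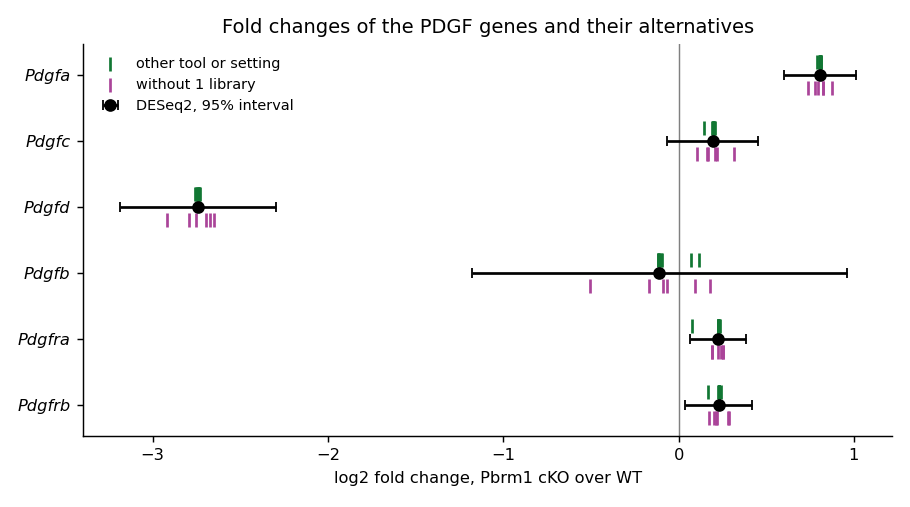
Log2 fold change of each PDGF gene, *Pbrm1* cKO over WT; the black point is the DESeq2 estimate with its 95% interval, green ticks are other tools or settings, and purple ticks leave out 1 library. *Pdgfd* lies near -2.74 and *Pdgfa* near 0.81 in every analysis, whereas the ticks of *Pdgfb* fall on both sides of 0.

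Genes whose expression over the 6 libraries was most like that of each PDGF gene were found by the distance between centred log2 profiles, among 10398 protein-coding genes. *Pdgfd* was nearest to *Sult4a1* (distance 0.312), a sulfotransferase gene, and *Cdo1* (0.383), cysteine dioxygenase, against a median distance of 3.42. *Pdgfa* was nearest to *Daglb* (0.065), a diacylglycerol lipase gene, and *Galns* (0.066), a lysosomal sulfatase gene, against a median of 1.08. *Pdgfb* was nearest to *Clu* (0.296), clusterin, and *Epas1* (0.327), the HIF-2α gene, against a median of 1.63. *Pdgfc* was nearest to *Rad21* and *Lrp12*, *Pdgfra* to *Gde1* and *Aldh5a1*, and *Pdgfrb* to *Arl8a* and *Tcf12*, at distances between 0.043 and 0.075. All points share these 6 libraries, and a likeness over 2 groups of 3 holds little beyond the fold change and the deviation of single libraries.

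Of 15 genes for proteins that process or bind the ligands, 6 rose and 3 fell, where 15.9% of all genes tested were higher and 15.2% lower, with a median log2 fold change of 0.27. *Furin*, a convertase of PDGF-A and PDGF-B, rose by 0.80 (SE 0.15, DESeq2 adjusted p = 4.37e-07). *Pcsk5*, another convertase, fell by 1.15 (SE 0.17, adjusted p = 3.46e-10) and *Serpine2*, an inhibitor of urokinase and thrombin, fell by 1.64 (SE 0.33, adjusted p = 7.89e-06). The third to fall was *Sparc*, which binds PDGF and was named after its values were seen, by 0.57. Of the proteases that activate latent ligands, *Plau*, which acts on PDGF-D, rose by 0.38 (adjusted p = 0.00481), a call lost without *Pbrm1* cKO replicate 1. *Plat*, which acts on PDGF-C, had 424, 1404 and 1300.4 normalized counts in WT against 1167, 1181 and 1147 in *Pbrm1* cKO, and *St14*, which acts on PDGF-D, had a log2 fold change of 0.59, or 0.23 without WT replicate 1; neither passed. The co-receptor *Lrp1* rose by 0.76 (adjusted p = 1.01e-16). *Nrp1* had a log2 fold change of 0.23 that did not pass, though without WT replicate 1 it did (adjusted p = 0.000601). The count of genes that rose was 3 without *Pbrm1* cKO replicate 1.

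Of 34 genes for signalling proteins downstream of the receptors, 7 rose, 6 fell and 21 did not pass, and the median was 0.07. These 13 of 34 stand beside 31.1% of all genes tested, a share near enough that the count is no result about the pathway. *Mapk3*, the ERK1 kinase, rose by 0.92 (SE 0.17, DESeq2 adjusted p = 6.27e-07) and *Nck2*, an adaptor, fell by 0.52 (SE 0.12, adjusted p = 0.000184). *Grb2*, the adaptor that links receptors to RAS, had 140, 206 and 423 normalized counts in WT against 583, 567 and 566 in *Pbrm1* cKO, a log2 fold change of 1.16 (adjusted p = 0.040), a call kept without WT replicate 3 but lost without any of the other 5 libraries. The count of genes that rose was 3 without *Pbrm1* cKO replicate 1 or replicate 2.

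Of 15 genes that attenuate receptor signalling, 10 rose and 1 fell, where 15.9% of all genes tested were higher and 15.2% lower, with a median of 0.60 against -0.0007 for all genes tested. *Spry2*, an inhibitor of RAS signalling, rose by 1.23 (SE 0.16, DESeq2 adjusted p = 5.09e-13), from 1472, 1587 and 2322 normalized counts to 4364, 4274 and 3992. *Ptprj*, a phosphatase that acts on PDGFRβ, rose by 1.44 (SE 0.14, adjusted p = 1.19e-22). *Inpp5d*, the SHIP1 phosphatase of blood cells, rose by 1.98 (SE 0.20, adjusted p = 9.85e-22), while leukocyte markers rose by a median of 2.12. The part of leukocytes in the rise of *Inpp5d*, *Ptprj* and the other genes of this list was not tested. *Ptprk*, named after its values were seen, was the gene that fell, by 0.82. Without WT replicate 3 the list had 2 lower genes.

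Of 20 transcripts that PDGF is known to induce in fibroblasts, 15 were higher and 1 was lower, where 15.9% of all genes tested were higher and 15.2% lower, with a median of 0.63. Among transcription factors, *Egr1* rose by 1.29 (SE 0.13, DESeq2 adjusted p = 9.79e-22) and *Fosb* by 1.40 (SE 0.10, adjusted p = 1.74e-40). *Fos* (log2 fold change -0.08, DESeq2 adjusted p = 0.792), *Ier3* (0.16), *Srf* (0.14) and *Cxcl1* (-0.27) did not pass. Those genes were named after their values were seen. The chemokine *Ccl2* had 327, 823 and 742 normalized counts in WT against 1598, 1527 and 1679.5 in *Pbrm1* cKO (log2 fold change 1.34, adjusted p = 0.00314). *Ptgs2*, named after its values were seen, was the gene that fell, by 0.66 (SE 0.09, adjusted p = 2.32e-11). These transcripts respond to serum and to many other signals, and *Ccl2* is also made by macrophages. The leukocyte markers that rose in the same libraries (13 of 14 tested, sums of 4426 to 10080 in WT against 39085 to 40579 in *Pbrm1* cKO) were given above, and their part in the rise of these transcripts was not tested. Without WT replicate 1 the list had 2 lower genes. Of the related VEGF family of 5, *Vegfa* rose by 0.88 (adjusted p = 4.69e-08) and *Vegfc* fell by 2.35 (adjusted p = 2.82e-28).

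**Figure D5:**
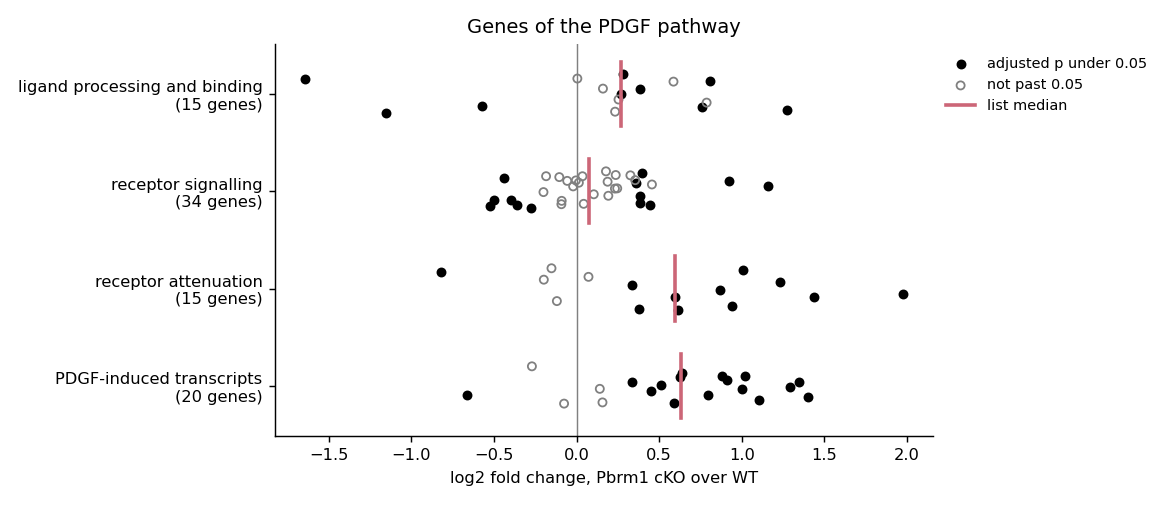
Log2 fold change, *Pbrm1* cKO over WT, of each gene in 4 lists of the PDGF pathway; filled points passed an adjusted p of 0.05, open points did not, vertical spread within a list has no meaning and red lines are medians. Medians are 0.27 for ligand processing and binding, 0.07 for receptor signalling, 0.60 for receptor attenuation and 0.63 for PDGF-induced transcripts.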

How the data were processed

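RNA was sequenced as single-end reads. The submitters' processing notes and the study's methods name cutadapt 2.7, HISAT2 2.1.0, GRCm38/mm10 and featureCounts 1.6.4 in reverse-stranded mode with GENCODE mouse release 18. The authors deposited 1 table of raw counts per gene, with no normalization and replicates kept apart. That program by default discards reads that map to several places or overlap several genes on the counted strand. The labels describe a total RNA kit with transcript depletion, whereas the methods describe poly(A) selection. The labels do not settle which holds.

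Symbols came from GENCODE release 21 (99.7% of 54232 identifiers matched). The study's methods name DESeq2, in an earlier version, for the comparison. Here counts were tested with DESeq2 1.42.0 in R 4.3.3, with settings chosen for this report: Wald test, 6 libraries, no covariate, Benjamini-Hochberg adjustment over all 17474 genes tested, threshold 0.05. Log2 fold changes are unshrunken, *Pbrm1* cKO over WT. Single-gene p-values are from DESeq2 throughout. Library totals were 13253575 to 18338667, and a count of 0 allows up to 3 counts, or 0.164 to 0.226 CPM, by counting error only. TPM used the exon length in the deposited table. In simulated data with 200 of 28552 genes changed, DESeq2 recovered 194 with 15 false calls. The simulation gave both groups the same spread and planted changes of fixed size only in genes above a minimum mean count. The real groups differed in spread (biological coefficient of variation 0.165 in WT and 0.047 in *Pbrm1* cKO). It therefore checks the code and gives no error rate for these data.

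Alternatives were edgeR 4.0.16 (quasi-likelihood), limma 3.58.1 (voom, a spread per group), TMM factors, 2 other filters, a test against a minimum fold of 0.58 (log2; adjusted p threshold 0.1), a replicate block, removal of the trend with gene length, and leaving out each library. The members and the gene lists were chosen with earlier results of these data known. The genes named are the 6 members, *Pbrm1*, up to 3 of the most changed genes past the threshold in each list (mean normalized count 50 or more), the proteases, co-receptors and receptor relatives of the pathway, the 2 nearest profiles per member and neighbouring genes; any other is identified where it appears or is a marker given as a level.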

Additional observations from a re-analysis of the deposited data

How the results depend on the processing

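Over 14 alternatives, *Pdgfd* (-2.92 to -2.65) and *Pbrm1* (-1.89 to -1.66) kept their direction and stayed past the threshold. *Pdgfa* ranged from 0.74 to 0.88 and passed in all but the test against 0.58, where its 0.81 had an adjusted p of 0.36. *Pdgfb* turned positive in limma voom (0.12) and with the replicate block (0.069), and ranged from -0.51 to 0.18 when 1 library was left out. *Pdgfc* ranged from 0.10 to 0.31 in the same way, *Pdgfra* from 0.19 to 0.26 and *Pdgfrb* from 0.17 to 0.29. *Pdgfra* missed the threshold in the test against 0.58 (0.23), with the replicate block (0.23) and with the length trend removed (0.078), and *Pdgfrb* passed it in limma voom (0.23). The causes were not tested, other than that leaving out a library reduces the samples.

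The test against 0.58 called 699 genes higher and 563 lower, against 2774 and 2658. It called 0 of the processing list higher, 0 of the signalling list higher and 0 lower, 4 of the attenuation list higher and 0 lower, and 5 of the induced list higher and 0 lower, where DESeq2 at the plain threshold called 6, 7, 6, 10, 1, 15 and 1. In limma voom 11 signalling genes rose. With the length trend removed 3 rose, their median was -0.008, and 2 attenuation genes fell. Leaving out 1 library gave 3 to 6 processing genes higher, 3 to 10 signalling genes higher, 1 to 2 attenuation genes lower with a median of 0.464 to 0.725, and 1 to 2 induced genes lower with a median of 0.586 to 0.735. The VEGF median ranged from -0.384 to 0.224. With 1 library left out, the genes called among all tested ranged from 1923 to 2915 higher and from 1790 to 2660 lower. Over the 14 alternatives these ranges were 699 to 3074 and 563 to 2915. When 1 library was left out, *Plat* ranged from -0.216 to 0.43, *Kitl* from -0.07 to 0.331, *Clu* from -0.373 to 0.334, *Kit* from 0.218 to 1.167, *St14* from 0.232 to 0.919 and *Epas1* from -0.565 to 0.135. *Epas1* was 0.138 in limma voom and 0.096 with the replicate block.

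Replicate numbers share no stated source. Deviations of same-numbered libraries correlated at 0.11, -0.05 and 0, and 2 of 6 libraries correlated best with their own number, so that the numbers were not taken as pairing. The replicate block called 2175 genes higher and 1828 lower. Groups of 3 were not tested for outlying libraries, and depth limits *Pdgfd* in *Pbrm1* cKO to 30 to 52 reads a library.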
